A study of Arabidopsis thaliana with 20 samples.

Results

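H3 occupancy in met1-3 leaves was compared with that in wild-type Col-0 leaves over every genomic window that the series lists for regions whose DNA methylation differs in met1 (differentially methylated regions, DMRs). The windows were chosen by methylation, not by H3, and came in lists for the CG, CHG and CHH sequence contexts, where H is any base but G. The lists hold 52937 windows of the 81944 listed for the 3 methyltransferase mutants of the series, namely 28608 for CG, 4617 for CHG and 19712 for CHH. Joined across contexts they made 47915 distinct DMRs of 100 bp, each with 500 bp on either side, and 17.5 Mb of distinct bases in 10489 uninterrupted blocks (median length 1199 bp, longest 30349 bp). The plants were 3.5 weeks old and of the Columbia background, either of the genotype met1-3 or Col-0, with no treatment named. Chromatin of mature leaves was digested with micrococcal nuclease (MNase), which spares DNA wrapped around nucleosomes, and fragments bound to histone H3 were immunoprecipitated and sequenced from both ends. These groups account for 4 of the 20 libraries, 2 per genotype, and the deposited tables hold 1 combined profile per genotype. No spread between libraries can therefore be given, no test of met1-3 against Col-0 was possible, and the range over the 5 chromosomes describes how uniform a value was within these combined profiles.

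MET1 is the DNA methyltransferase that copies CG methylation onto the new DNA strand after replication, and met1-3 is a loss-of-function T-DNA insertion allele of it. CG methylation in Arabidopsis lies mainly over transposons and repeats, which crowd around the centromeres, and over the bodies of many transcribed genes. CHG methylation is maintained mainly by CMT3, and CHH methylation by DRM2 in the RNA-directed pathway and by CMT2. DNA wraps around an octamer of histones, H3 among them, and the linker between neighbouring nucleosomes is what MNase cuts first. The labels do not say whether the met1 DMRs lose or gain methylation, and the MET1 gene has no window, so neither the genotype nor the methylation change could be checked in these tables.

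Depth differed between the genotypes. Over the distinct bases, met1-3 averaged 2.86 fragments per base and Col-0 averaged 6.79. No fragment covered 61.7% of bases in met1-3 and 55.5% in Col-0, and 50.0% of bases were uncovered in both. To compare levels, the met1-3 values were brought to the Col-0 level with a factor of 0.542 as divisor, and such values are called scaled. The factor is summed met1-3 coverage over summed Col-0 coverage at bases about 280 bp or more from any DMR. That ratio was between 0.486 and 0.565 on single chromosomes. One fragment in met1-3 thus counts as 1.84 scaled fragments. A scale taken from all bases (0.421) would raise every log2 ratio by 0.37, and one taken from the median block (0.411) by 0.40. The height of the zero line is uncertain by that much. Differences between fixed classes of bases or peaks do not depend on the scale beyond the pseudocount. Which peaks are called, and the height class of each, do depend on it. Whole leaves were used, so a lower H3 coverage in every cell and an absent nucleosome in a share of cells cannot be told apart.

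H3 was lower in met1-3 over the DMRs themselves. Of the 47915 DMRs, 20064 (41.9%) had a mean coverage of at least 10 fragments summed over both genotypes, and these averaged 22.4 scaled fragments per base in met1-3 and 35.5 in Col-0. Their median log2 ratio, with 1 added to each value, was -0.65, between -0.79 on chromosome 3 and -0.48 on chromosome 5. Coverage was more than 2-fold lower in met1-3 at 28.9% of these DMRs and more than 2-fold higher at 1.41%. The minimum is on unscaled coverage, to which the deeper Col-0 adds more, so it leans towards DMRs that are high in Col-0. Without a minimum the median was -0.37, and 24.4% of all DMRs were more than 2-fold lower. Among all DMRs, 37.6% had no fragment in met1-3 and 25.5% had none in Col-0, with 22.3% empty in both. These shares are not corrected for depth, and a count of 0 is more likely in the shallower met1-3 profile. With the minimum, the median stayed below 0 under every scale tried, and was -0.30 with the scale from all bases and -0.26 with that from blocks.

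The lower coverage was centred on the DMRs. Without any scaling between genotypes, DMR bases had 2.72 times the coverage of bases about 280 bp or more away in met1-3, and 4.22 times in Col-0, a log2 difference of -0.64. On single chromosomes this difference was between -0.84 (chromosome 3) and -0.43 (chromosome 4). From a DMR outwards, the log2 ratio of summed scaled coverage was -0.64 inside, -0.43 within 50 bp, -0.30 in the next 50 bp, -0.19 in the 50 bp that end at 150 bp and -0.11 in those that end at 200 bp. It was -0.03 in the next class outwards and 0.01 in the outermost class, which ends at 500 bp and where the scale sets it near 0. DMR bases were also the most covered bases in both genotypes, with 9.39 scaled fragments in met1-3 and 14.6 in Col-0, while the outermost class had 3.58 in met1-3 and 3.55 in Col-0. The mean profile around all DMRs was highest within 5 bp of their centre in both genotypes, at 10.1 scaled fragments in met1-3 and 16.1 in Col-0.

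**Figure D1:**
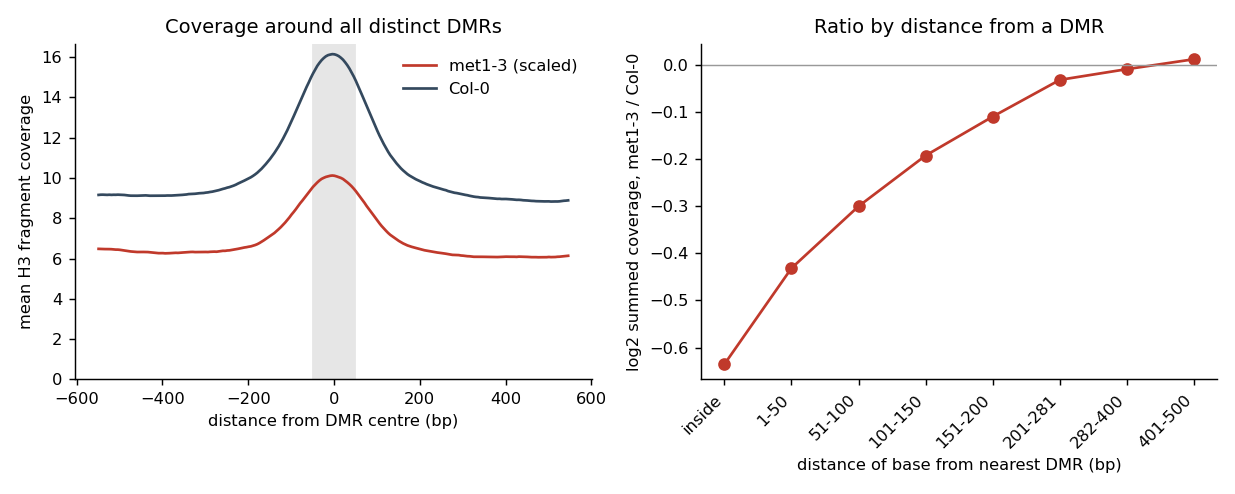
Left, mean H3 fragment coverage (scaled in met1-3) against the distance from the centre of each of the 47915 distinct DMRs, with the DMR shaded. Windows overlap, so flanks of one DMR can hold another. Right, log2 ratio of summed scaled met1-3 coverage to Col-0 coverage for bases grouped by their distance from the nearest DMR, from -0.64 inside to 0.01 in the outermost class.

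Single nucleosome-sized peaks were lower as well. Peaks were the summits of the smoothed mean of scaled met1-3 and Col-0 coverage, so that neither genotype alone chose them, and 11224 reached a height of 10. Their median height was 24.5 scaled fragments (13.3 before scaling) in met1-3 and 37.7 in Col-0. The median log2 ratio of height was -0.46, between -0.55 on chromosome 3 and -0.34 on chromosome 5, and 8297 peaks (73.9%) were lower in met1-3. The height was more than 2-fold lower at 19.8% of peaks and more than 2-fold higher at 4.63%. With the scale from all bases the median was -0.057. Peaks called in met1-3 alone gave -0.27 and peaks called in Col-0 alone gave -0.61.

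The difference was larger at peaks of 20 to 100 than at lower ones. The 2158 peaks with a mean height of 10 to 15 had a median log2 ratio of 0.14, and the 1250 peaks of 15 to 20 had -0.09. For peaks of 20 to 30 it was -0.50, for 30 to 40 it was -0.64, for 40 to 60 it was -0.61 and for 60 to 100 it was -0.52. The call of the lowest peaks rests on few fragments, with a median of 6.86 unscaled fragments in met1-3 and 11.5 in Col-0 in the class of 10 to 15. A peak had to reach 10 in the mean of both genotypes, in which 1 met1-3 fragment counts as 1.84. How far this choice of peaks shapes the trend with height was not tested. The 95 peaks over 100 stood apart, with a median height of 236 scaled fragments in met1-3 and 188 in Col-0 and a median log2 ratio of 0.29.

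Peaks inside a DMR were lower relative to Col-0 than peaks away from one. The 6125 peaks with their summit in a DMR had a median log2 ratio of -0.58, the 1953 at 1 to 100 bp had -0.41, and the 871 at about 280 bp or more had -0.10. The last value is 0.24 with the scale from all bases and 0.28 with that from blocks, so its direction depends on the scale. The first and the last differ by -0.48. The other scales, applied to the same peaks, cancel from this difference except for the pseudocount, and each gave -0.47. The difference was -0.64 for peaks called in met1-3, -0.30 for peaks called in Col-0 and -0.42 without chromosome 3. Peaks in DMRs were also taller in Col-0, at 43.7 fragments against 23.3 far from DMRs. At a matched height of 10 to 20, the medians were -0.27 inside DMRs and 0.34 far from them. At 20 to 40 they were -0.69 inside and -0.29 far away. At 40 to 100 they were -0.60 inside and -0.46 far away, where the 177 tall distant peaks had a median height of 41.8 scaled fragments in met1-3 and 58.4 in Col-0. With the scale used here, tall peaks were therefore lower in met1-3 on either side of a DMR boundary. The scales from all bases and from blocks would raise these ratios by about 0.37 and 0.40, which is most of the -0.46 of the distant tall peaks. The gap between inside and far away was widest among low peaks.

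**Figure D2:**
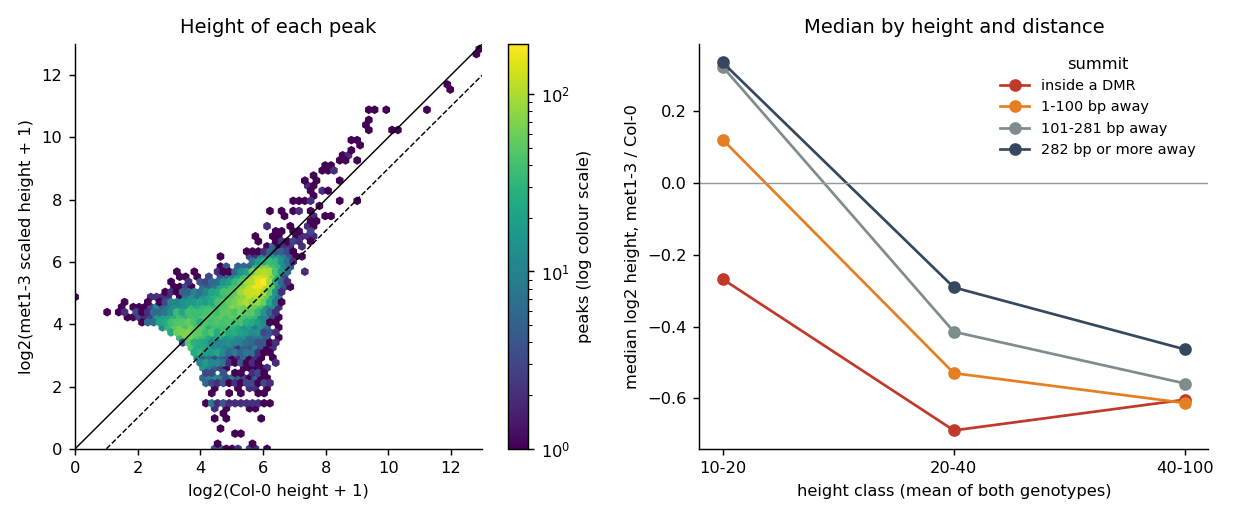
Left, height of each of the 11224 peaks in met1-3 (scaled, vertical axis) and Col-0 (horizontal axis), both as log2(height + 1), with colour giving the number of peaks per hexagon on a log scale. The solid line marks equal heights and the dashed line a 2-fold lower value in met1-3. Right, median log2 ratio of height by height class and by distance of the summit from the nearest DMR, which runs from 0.34 for low distant peaks to -0.69 for peaks of 20 to 40 inside DMRs.

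The contexts in which a DMR was listed went with the size of the difference. The 4028 peaks over DMRs listed for CG only had a median height of 26.6 scaled fragments in met1-3 and 43.3 in Col-0 and a median log2 ratio of -0.54. For the 246 peaks over CHG-only DMRs the ratio was -0.50. For the 489 over CHH-only DMRs it was -0.38, with heights of 19.7 scaled fragments in met1-3 and 26.4 in Col-0. Where CG and CHG DMRs coincided, the median log2 ratio was -0.71 over 851 peaks, and where CG and CHH coincided it was -0.75 over 258. The 196 peaks under DMRs of all 3 contexts had heights of 24.3 scaled fragments in met1-3 and 51.4 in Col-0 and a median log2 ratio of -0.89, with 194 of them lower in met1-3. Of these 196, 39.3% were more than 2-fold lower, against 24.1% of all peaks inside DMRs. Where CHG and CHH coincided without CG, the share was 40.4% of 57 peaks, with a median log2 ratio of -0.75. The 5099 peaks with no DMR under the summit had a median of -0.28.

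Gene classes came from the RefSeq annotation of assembly TAIR10.1, in which most transposon genes are listed as pseudogenes. The 6178 peaks in pseudogenes had median heights of 25.5 scaled fragments in met1-3 and 40.7 in Col-0, with a median log2 ratio of -0.50. The 3130 peaks outside annotated genes had a median of -0.51. The 1787 peaks in protein-coding genes had heights of 23.4 scaled fragments in met1-3 and 28.4 in Col-0 and a median of -0.25, which was -0.38 in the pericentromeres and -0.17 on the arms. Pseudogene peaks had nearly the same median in pericentromeres (-0.50) and on arms (-0.48). At a matched height of 40 to 100 the medians were -0.61 in pseudogenes and -0.48 in protein-coding genes, and at 20 to 40 they were -0.58 and -0.34. Gene means cover only the bases of a gene that lie in windows, and the minimum on them is unscaled, as for the DMRs. Of 4452 protein-coding genes with at least 100 bp in windows, 888 reached a coverage of 10, and their median log2 ratio was -0.26. It was 0.087 with the scale from all bases and 0.12 with that from blocks, so its direction depends on the scale. Of these genes 7.21% were more than 2-fold lower and 2.48% more than 2-fold higher in met1-3. Of 2968 pseudogenes, 1462 reached that coverage, with a median of -0.41, and 10.3% were more than 2-fold lower and 0.479% more than 2-fold higher. The pseudogene median was -0.071 with the scale from all bases and -0.038 with that from blocks.

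Genes known for control by DNA methylation were looked up in the windows. Of all 27444 annotated protein-coding genes 16.2% had at least 100 bp in windows, and 19.9% of those reached a coverage of 10. Of 15 loci silenced or imprinted through methylation, 5 had windows, and none of these reached that coverage, which with 5 genes is no result about them. HDG9, a homeodomain gene, averaged 3.50 scaled fragments in met1-3 and 5.48 in Col-0. AGL36, an imprinted MADS-box gene, averaged 5.25 in met1-3 and 5.32 in Col-0. SUP, the floral regulator SUPERMAN, averaged 2.92 in met1-3 and 2.52 in Col-0, and QQS, which acts on starch content, 2.42 in met1-3 and 1.64 in Col-0. SDC, an F-box gene silenced by methylation of promoter repeats, had no fragment in either genotype over its 288 bp in windows. Among 21 methylation genes only the histone methyltransferase SUVH6 (4.64 in met1-3, 3.16 in Col-0) and the Dicer DCL3 (1.83 in met1-3, 1.76 in Col-0) had windows. Of 16 chromatin remodellers and histone chaperones, 12 had no window, 3 were not matched by name, and HIRA, an H3.3 chaperone, averaged 2.18 in met1-3 and 3.62 in Col-0. None of these levels rests on more than 2.85 unscaled met1-3 fragments per base.

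The 5 protein-coding genes with the lowest and the 5 with the highest ratios were picked after their values were seen. The lowest were AT3G42990, with 0.383 scaled fragments in met1-3 and 17.6 in Col-0, and AT3G43682, with 0.927 in met1-3 and 14.9 in Col-0. AT4G19270 followed with 6.68 in met1-3 and 43.8 in Col-0, then AT4G11430 with 5.69 in met1-3 and 33.8 in Col-0 and AT1G48953 with 3.41 in met1-3 and 18.7 in Col-0. The highest was AT3G46570, with 23.1 in met1-3 and 5.77 in Col-0, ahead of AT2G21850 with 24.2 in met1-3 and 6.21 in Col-0. AT3G29570 (12.4 in met1-3, 3.51 in Col-0), AT1G24330 (12.6 in met1-3, 3.73 in Col-0) and MAPKKK9, a kinase of the MAP kinase cascade (16.3 in met1-3, 5.06 in Col-0), completed them.

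The measured shape of the peaks differed little. The full width at 50% of summit height, measured where the profile came down on both sides in both genotypes, was 166 bp in met1-3 and 165 bp in Col-0 over 5754 peaks. The median difference was 1 bp, from 0 to 2 bp over the chromosomes, and 76.0% of peaks were within 20 bp of equal width. Both profiles were smoothed alike, and the fall had to lie within 150 bp of the summit, which left 5754 of 11224 peaks. These shared limits and the shared range of fragment lengths given below keep the widths close. The widths therefore do not show that the peaks were alike. Divided by the value at the summit, mean coverage over 9463 peaks was 0.690 in met1-3 and 0.686 in Col-0 at 73 bp, 0.535 in met1-3 and 0.528 in Col-0 at 100 bp, and 0.381 in both at 150 bp. Farther out the met1-3 profile lay slightly under the Col-0 one, at 0.414 against 0.424 at 250 bp. The fragments counted in the coverage were of similar length. Isolated stretches with a coverage of 1, each a single fragment, had a median length of 159 bp in met1-3 (5215 stretches) and 158 bp in Col-0 (4134 stretches). All but 3 of them in met1-3 and 1 in Col-0 were between 121 and 169 bp long. These limits were the same in both genotypes, and the shortest stretch was also 121 bp in drm2 and in cmt3. A shared range with such limits keeps the medians close, so they do not show that the digests were alike. Whether fragments had been selected by length was not tested.

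Linkers were lower along with the peaks beside them. Between neighbouring peaks 120 to 250 bp apart, the lowest coverage had a median of 16.7 scaled fragments in met1-3 and 26.5 in Col-0, beside peaks of 29.3 in met1-3 and 46.3 in Col-0. The ratio of linker to peak was 0.612 in met1-3 and 0.630 in Col-0 over 1920 pairs, with a median difference of -0.015 and a range over chromosomes from -0.036 to 0.020. A shallower profile has lower minima by sampling alone. Read at the same base in both genotypes the ratio was 0.645 in met1-3 and 0.648 in Col-0, and at the midpoint between the peaks it was 0.728 in met1-3 and 0.751 in Col-0.

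Spacing and position of the peaks were compared with peaks called in each genotype alone, 11354 in met1-3 and 11120 in Col-0. Neighbouring peaks 120 to 250 bp apart had a median distance of 203 bp in met1-3 (2048 distances) and 204 bp in Col-0 (1843 distances). The difference on single chromosomes was between -3.5 and 2.5 bp. The peak call kept summits at least 1 nucleosome core length apart, and this class ends at 250 bp. These shared limits keep the medians close, so these medians do not show that spacing was alike. Over all distances up to 1000 bp the median was 319 bp in met1-3 (6353 distances) and 334 bp in Col-0 (6173 distances). It was shorter in met1-3 on each chromosome, with 309 against 335 bp on chromosome 1 and 326 against 336 bp on chromosome 2. Why it was shorter was not tested. Distances of 200 to 220 bp made up 7.37% of those up to 1000 bp in met1-3 and 7.14% in Col-0. The correlation of log2 coverage with itself at a fixed distance, taken inside blocks, declined at each step of 10 bp in both genotypes with no second maximum up to 400 bp, and was 0.130 in met1-3 and 0.169 in Col-0 at 200 bp. It is a description across the 17.5 Mb of bases, which share fragments with their neighbours. A peak called in met1-3 lay within 20 bp of 53.7% of the Col-0 peaks and within 73 bp of 77.2%. For the 8583 peaks matched within 73 bp the median shift was 0 bp with its sign and 12 bp without it.

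**Figure D3:**
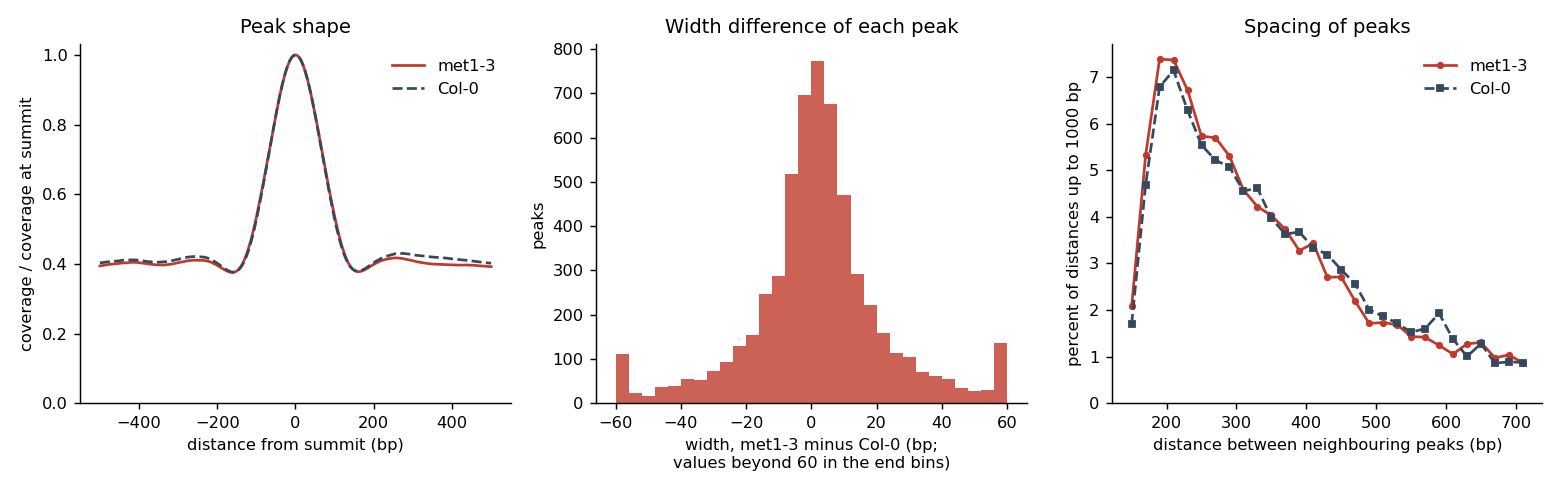
Left, mean coverage around 9463 summits divided by the coverage at the summit, in met1-3 (solid) and Col-0 (dashed). Middle, width in met1-3 minus width in Col-0 for 5754 peaks, with a median of 1 bp. Right, share of the distances between neighbouring peaks by distance in bp, in met1-3 (circles) and Col-0 (squares), highest between 180 and 220 bp in both.

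With all bases counted, pericentromeres and arms differed by less than that difference varied from chromosome to chromosome (SD 0.129). Within 3 Mb of the centromeres the windows averaged 6.82 scaled fragments in met1-3 and 8.90 in Col-0, and on the arms 2.77 in met1-3 and 3.39 in Col-0. The log2 ratios were -0.38 and -0.29, a difference of -0.09, which was between -0.17 and -0.12 on chromosomes 1 to 4 and 0.14 on chromosome 5. With the bound at 2 Mb it was -0.0059, and at 4 Mb it was -0.13. The 26188 bases with over 100 fragments in either genotype, 0.150% of all, held 14.8% of the met1-3 coverage and 10.5% of the Col-0 coverage. Without them the difference was -0.17. It was then below 0 on each chromosome, from -0.28 on chromosome 3 to -0.03 on chromosome 5. The median log2 ratio of peak height was -0.49 in pericentromeres and -0.35 on arms.

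In 100 bins of 500 kb with at least 50 kb in windows, leaving out those bases, the log2 ratio was between -0.93 and 0.12 with a median of -0.40. It was below 0 in 96 of the 100 bins, but in 60 with the scale from all bases and in 53 with that from blocks. The lowest bin was at 15.5 to 16 Mb on chromosome 3, with 3.73 scaled fragments per base in met1-3 and 7.19 in Col-0 when all its bases are counted, and the bin before it had 5.50 in met1-3 and 9.73 in Col-0. The bin with the next lowest ratio, -0.83, lay on an arm of chromosome 1, with 1.23 in met1-3 and 2.19 in Col-0.

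**Figure D4:**
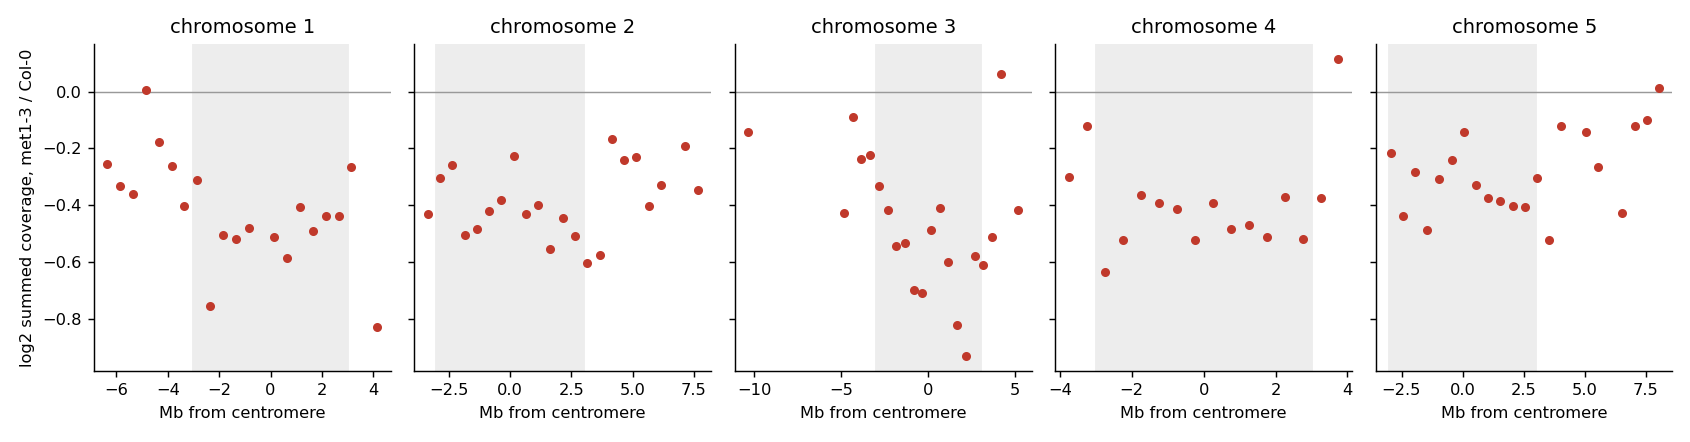
Log2 ratio of summed scaled met1-3 coverage to Col-0 coverage in 100 bins of 500 kb, without bases over 100 fragments, against the distance of the bin from the centromere in Mb, with 3 Mb on each side shaded. The lowest bin, at -0.93, and the bin beside it lie in the pericentromere of chromosome 3.

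The strongest differences were gathered on chromosome 3. Of the 8170 peaks with a height of at least 20 in Col-0, 352 (4.31%) were more than 4-fold lower in met1-3. These were 194 of 2168 such peaks (8.95%) on chromosome 3, 4.81% on chromosome 1 and between 1.03% and 2.38% on the others. Between 11 and 19 Mb of chromosome 3, bounds set after the values were seen, 191 of 1899 peaks (10.1%) were more than 4-fold lower, against 3 of 269 (1.12%) on the rest of that chromosome and 2.63% on the other chromosomes. From 15 to 16 Mb it was 68 of 293 peaks (23.2%). The other peaks of the stretch, with those 191 set aside, had a median log2 ratio of -0.68, and those of the other chromosomes had -0.58 by the same count. The share over all chromosomes was 2.57% without that stretch, 2.63% without chromosome 3, and 2.77% with the scale from blocks. Peaks picked for their height in Col-0 lean towards lower values in met1-3, on each chromosome.

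At 16 of the 8170 peaks (0.196%) no met1-3 fragment lay within 73 bp of the summit. The highest Col-0 coverage at these peaks was between 21 and 58 fragments, with a median of 26. A count of 0 allows up to 3 fragments, which makes them at least 3.8-fold to at least 10.5-fold lower in met1-3 by counting error alone. Of the 16, 12 lay on chromosome 3 between positions 11834232 and 18757813 (build TAIR10), 12 had their summit in a DMR, 5 lay in pseudogenes, 2 in protein-coding genes (AT3G30200 and AT3G50540) and 9 outside annotated genes. Of all 11224 peaks, whatever their height in Col-0, 6125 had their summit in a DMR. In pseudogenes lay 6178 of the 11224, in protein-coding genes 1787 and outside annotated genes 3130. With 16 peaks, these counts are no result about the classes. Neighbours among the 12 on chromosome 3 lay at 15576348, 15576895 and 15578532, with 53, 35 and 36 Col-0 fragments at most. The reverse, a peak of at least 20 scaled fragments in met1-3 with no Col-0 fragment, occurred once. It lay at position 16844213 of chromosome 5, with up to 15 fragments in met1-3, at least 9.22-fold higher than in Col-0. This count is not comparable with the 16 above. Col-0 was deeper, with 6.79 fragments per base against 2.86 in met1-3, so a count of 0 is less likely in Col-0. The number of met1-3 peaks of that height, and so a share, is not given here.

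Most whole blocks that were more than 4-fold lower lay in the same part of chromosome 3. Of 2340 blocks with a coverage of at least 10 (met1-3 unscaled, as for the DMRs), 6.84% were more than 2-fold lower in met1-3. More than 2-fold higher were 0.427%, and the median log2 ratio was -0.37. Chromosome 3 held 516 of the 2340 blocks. On it 8.53% were more than 2-fold lower, against 6.36% of the 1824 on the other chromosomes. The 10 blocks that were more than 4-fold lower (0.427%) included 7 on chromosome 3, between 12.8 and 17.0 Mb, of 1299 to 13699 bp and 50.2 kb in all. Their means were between 2.14 and 7.03 scaled fragments in met1-3 and between 15.6 and 32.2 in Col-0. The tables for drm2 cover most of the same bases, and there the 7 blocks had 8.83 to 28.1 scaled fragments in drm2 and 16.2 to 34.4 in Col-0. Input DNA was not analysed here, so fewer nucleosomes and less DNA recovered from these stretches cannot be told apart.

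The block with the lowest ratio on each chromosome was named by rule. On chromosome 3 it was 15574751 to 15588449, which holds the pseudogenes AT3G43675, AT3G43680, AT3G43681, AT3G43684 and AT3G43686 and the protein-coding gene AT3G43682. Its mean was 3.36 scaled fragments in met1-3 and 28.8 in Col-0 over 13699 bp, of which 8750 bp were DMRs, a log2 ratio of -2.77. On chromosome 4 it was 3680151 to 3681249 in the pseudogene AT4G06602, with 3.44 in met1-3 and 31.5 in Col-0, a log2 ratio of -2.87. On chromosome 1 it was 14306501 to 14307749, with no annotated gene, at 1.28 in met1-3 and 10.6 in Col-0. The lowest on chromosome 2, at 6785901 to 6787399, had 5.38 in met1-3 and 19.03 in Col-0, and that on chromosome 5, at 12246751 to 12247849 in the pseudogene AT5G32598, had 11.8 in met1-3 and 38.2 in Col-0.

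The block with the highest ratio on each chromosome was between 1099 and 1149 bp long. On chromosome 1 it was 8633701 to 8634849 in AT1G24330, with 12.6 scaled fragments in met1-3 and 3.73 in Col-0, a log2 ratio of 1.53. On chromosome 2 it was 1275751 to 1276899, over AT2G04020 and RGF3, which encodes a root meristem growth factor peptide, with 12.8 in met1-3 and 3.49 in Col-0 and a log2 ratio of 1.62. On chromosome 3 it was 10010201 to 10011299 at AT3G27150, with 16.0 in met1-3 and 6.97 in Col-0. The highest on chromosome 4, at 3980751 to 3981899, had 29.0 in met1-3 and 14.4 in Col-0. On chromosome 5 it was 11708151 to 11709249, close to the centromere and with no annotated gene, with 335 in met1-3 and 154 in Col-0. With a pseudocount of 5, the blocks named here as highest on chromosomes 1 and 2 had ratios of 1.02 and 1.07. Those named as lowest on chromosomes 1, 3 and 4 had -1.32, -2.02 and -2.11, and 8 of the 10 named blocks were still the extreme of their chromosome. Before scaling, each of these 5 blocks with the highest ratios still had more fragments in met1-3, with means of 182 in met1-3 and 154 in Col-0 in the last.

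The rule for single peaks looked at the 5781 whose unscaled met1-3 height and Col-0 height summed to 50 or more, and named those that differed most from the mean of their block. All 6 lay on chromosome 3 and in blocks that were lower as a whole. The largest decrease was at 12846208 over a DMR of CG and CHG, with at most 2 fragments in met1-3 and 71 in Col-0 within 73 bp of the summit. The peak at 15036153 in the pseudogene AT3G42993 had 0 fragments in met1-3 and 58 in Col-0, and that at 14807152 in the pseudogene AT3G42727 had at most 2 in met1-3 and 54 in Col-0. The peaks with the largest relative increases were also lower than in Col-0, but by less than their block. The peak at 15038333 had 84.0 scaled fragments in met1-3 and 106 in Col-0, in a block that averaged 7.98 in met1-3 and 33.1 in Col-0. It lies about 2 kb from the emptied peak at 15036153. Those at 14803768 (26.5 in met1-3, 47.6 in Col-0) and 15587123 (35.5 in met1-3, 84.4 in Col-0) were lower by 0.82 and 1.23 on the log2 scale. The median peak of this class was lower by 0.14 (log2) relative to its block.

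**Figure D5:**
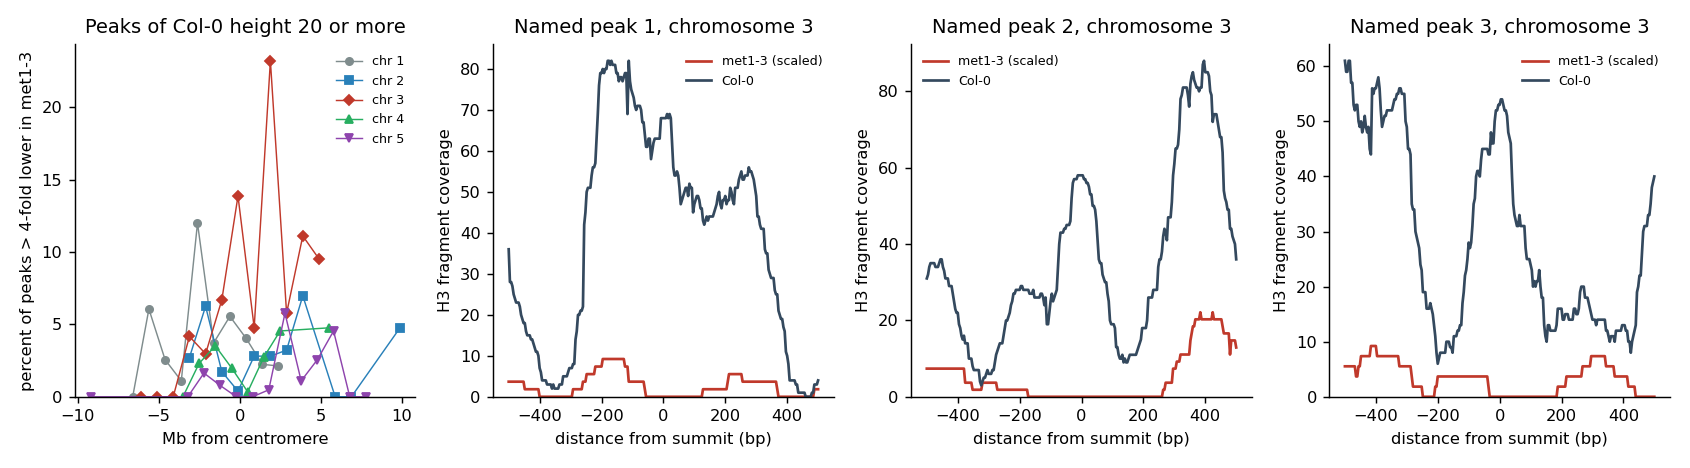
Left, percent of peaks with a Col-0 height of at least 20 that were more than 4-fold lower in met1-3, per Mb with at least 20 such peaks, against the distance from the centromere in Mb. Chromosome 3 (red diamonds) reaches 23.2%. Right, H3 fragment coverage (scaled in met1-3, red, and Col-0, dark) around the 3 peaks with the largest decrease relative to their block, with 71, 58 and 54 Col-0 fragments at most near the summit.

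The same measures over the windows of drm2 and cmt3 are given side by side. They share the Col-0 libraries with met1-3, each was scaled on its own windows, and no difference between mutants was tested. The scale factor was 0.542 in met1-3, 1.33 in drm2 and 0.664 in cmt3. The median log2 ratio of peak height to Col-0 was -0.46 in met1-3 over 11224 peaks, -0.19 in drm2 over 9667 and -0.0085 in cmt3 over 2009. For peaks of 40 to 100 it was -0.59 in met1-3, -0.52 in drm2 and 0.0044 in cmt3. For peaks of 10 to 20 it was 0.05 in met1-3, 1.08 in drm2 and -0.14 in cmt3. Peaks inside DMRs minus those far away gave -0.48 in met1-3, -0.58 in drm2 and -0.23 in cmt3. The linker-to-peak ratio was 0.612 in met1-3 against 0.630 in Col-0, 0.730 in drm2 against 0.606 in Col-0, and 0.668 in cmt3 against 0.654 in Col-0. Fragments had median lengths of 159 bp in met1-3, 154 bp in drm2 and 160 bp in cmt3. Between 11 and 19 Mb of chromosome 3, peaks more than 4-fold lower were 10.1% of 1899 in met1-3, 0.181% of 1105 in drm2 and 1.12% of 269 in cmt3. Outside that stretch, whose bounds were set on the met1-3 values, the shares were 2.57% in met1-3, 0.526% in drm2 and 1.36% in cmt3. At the 15 peaks without a met1-3 fragment that drm2 windows cover, drm2 had 5 to 57 fragments at most.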

How the data were processed

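The H3 tables hold the deposited signal, which is the coverage per base. The values are whole numbers with no normalization found in them, and isolated stretches of coverage 1 had the length of 1 fragment. Reads were 50 bp paired-end, per the labels' protocols. The submitters' processing notes name TAIR10, Bowtie2, Picard, Bismark and methylKit without saying which step used which. Each table holds 1 profile for both replicates of a genotype. The edgeR test foreseen for replicate columns was therefore not run, no p-value is given and library totals are unknown.

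Windows of the 3 contexts were joined by position. A base that recurred had the same value in each of 81453704 recurrences. Coverage was smoothed with a Gaussian (SD 20 bp), and peaks were summits at least 1 nucleosome core length apart and from a block's end, with a height of at least 10. Log2 ratios have a pseudocount of 1, and a DMR, block or gene needed a coverage of 10 summed over both genotypes, met1-3 unscaled. Centromere positions are textbook values, not from the tables. Gene names came from RefSeq (TAIR10.1), by position on the nuclear chromosomes. The named blocks were the lowest and the highest per chromosome. The named peaks were the 3 largest decreases and increases relative to their block at a summed height, met1-3 unscaled, of at least 50. The members and lists were chosen with earlier results of these data known. The measures of scale, DMR ratio, peak height, width, linker and fragment length were run on simulated coverage. The simulation had the layout of 1 chromosome and fragments of 1 length. Spacing, peak positions, blocks, bins, correlation along the bases and empty peaks were not simulated. Floors and bounds are for counting error alone, as no molecular identifiers are named. Alternatives were other scales, pseudocounts, minimums, smoothing and chromosome sets. The software was numpy 2.4.6, scipy 1.17.1, pandas 2.3.3 and matplotlib 3.10.9 under Python 3.11.15.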

Additional observations from a re-analysis of the deposited data

How the results depend on the processing

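No paired analysis was possible because each table holds 1 combined profile per genotype, and for the same reason no replicate could be left out. Among the summary levels, the scale, the peak call and the minimums moved values, and for the named blocks with the lowest ratio on chromosomes 1, 3 and 4 and the highest on 1 and 2 the pseudocount moved them more than the scale from all bases did. With the scale from all bases, from flanks without bases over 100 fragments, and from blocks, the DMR median was -0.30, -0.56 and -0.26. The share of DMRs more than 2-fold lower was 16.6% with the scale from all bases and 15.8% with that from blocks. The median log2 ratio of peak height was -0.057 with the scale from all bases and -0.35 with the flank scale without bases over 100 fragments, and with the scale from all bases 9.56% of peaks were more than 2-fold lower. The median of peaks far from DMRs reversed to 0.24 with the scale from all bases and 0.28 with that from blocks, and that of protein-coding genes reversed to 0.087 and 0.12 with the same scales. Without a coverage minimum the DMR median was -0.37. Peaks called in met1-3 gave a median height ratio of -0.27 with 11.1% more than 2-fold lower, peaks called in Col-0 gave -0.61, a minimum height of 5 gave -0.37 and one of 20 gave -0.58. The width difference was 0 bp at a minimum height of 5, and 2 bp both at 20 and without chromosome 3. The linker difference was -0.040 at a minimum height of 20. Of 64 recomputed main values, 47 stayed within the spread over chromosomes or within 1.5 times a share and 17 moved. Of 48 further recomputed values, for named blocks, genes, bins and peak classes, 24 stayed, 20 moved and 4 reversed. With a pseudocount of 5 the block named as lowest on chromosome 1 was at -1.32. The readings at the same base and at the midpoint, the gene, bin and 4-fold alternatives and the scales for peak classes were chosen after seeing the data. Scale, depth (2.86 fragments per base in met1-3, 6.79 in Col-0) and the missing replicates limit every level. Why the scales differ was not tested.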
